A study of Mus musculus with 6 samples.

Results

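The genes described are 10 markers of the formative and primed epiblast: Otx2, Fgf5, Pou3f1, Lef1, Sox3, Sox4, Zic2, Zic5, Cdh2 and Sall2. They were chosen by name as genes of the epiblast-like state that precedes germ cell fate in culture, and all 10 were among the 37991 gene IDs of the count table. Their messenger RNA was counted in PGCLCs, mouse cells made in culture to resemble primordial germ cells, on day 4 of induction, in 3 Ctrl libraries and 3 Ezh2 KO libraries. All 6 libraries came from C57BL/6 embryonic stem cells of genotype Ezh2f/f, CreERT2, whose Cre recombinase acts on floxed Ezh2 once 4-hydroxytamoxifen is given. The cells had 2 days of basic FGF and Activin A to become epiblast-like and were then aggregated with BMP2, SCF, LIF and EGF. Ezh2 KO aggregates, labelled Ezh2-/-, CreERT2, received 4-hydroxytamoxifen in ethanol at the start of aggregation, and Ctrl aggregates received ethanol. With that design, loss of Ezh2 and any other action of the tamoxifen compound cannot be told apart. The promoter that drives Cre, the number of stem cell clones and the gate of the cell sort are not stated in the labels, and none of them says whether each replicate was induced on its own. The p-values therefore cover only the variation among these samples, which may be technical.

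Pluripotent cells leave the naive state for a formative one, in which they can answer germ cell inducing signals, and then become primed for somatic lineages. Otx2, Pou3f1 and Fgf5 come on in the first of these steps, and BMP drives part of the cells to germ fate, in which such genes are shut off. Polycomb repressive complex 2, of which Ezh2 is the chief catalytic subunit, puts the repressive mark H3K27me3 on histones, often at CpG-rich promoters of developmental genes.

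The libraries held 27072150 to 49382146 counts. Levels are given as CPM, counts scaled to library size after TMM normalization. In replicate order, Ezh2 itself stood at 91.8, 78.1 and 95.3 CPM in Ctrl and at 40.8, 67.1 and 70.0 CPM in Ezh2 KO. These Ezh2 KO levels are below all Ctrl libraries, as for 4.03% of all tested genes, but far from 0. They were 44.4%, 85.9% and 73.5% of the same-numbered Ctrl libraries. The log2 fold change of Ezh2 was -0.58 ± 0.23 SE and did not pass over all genes (edgeR unadjusted p = 0.0361, adjusted p = 0.976). Adding the replicate numbers to the fit gave -0.61 (edgeR adjusted p = 0.481). Counts over the whole gene include exons outside the deleted part, so they do not measure how much working enzyme was left. All 13 germ cell genes listed were abundant enough to test, among them Tfap2c at 300 ± 20.1 CPM in Ctrl against 227 ± 73.0 CPM in Ezh2 KO (SD, n = 3), and their summed level was 1151 to 1408 CPM in Ctrl against 884 to 1268 CPM in Ezh2 KO. The first principal component, with 55.5% of the variance, ran from Ctrl replicate 1 at one end to Ezh2 KO replicate 2 at the other.

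Promoter sequences are shown for 3 markers that behaved differently: Zic5, the marker of smallest spread within groups, Lef1, which was lower in all 3 same-numbered pairs but with groups that overlap, and Otx2, the 1 marker with a positive fitted difference. RefSeq windows on GRCm38.p6, which is another build than the mm9 of the counts, run from 250 bases before to 50 after a transcript start, and 6 of the 10 markers matched by symbol. Pou3f1, Sox3, Zic2 and Cdh2 did not. Capitals mark each CpG dinucleotide (CG, which reads the same on both strands), and the first listed window of a gene is printed.
Zic5 (chr14:122465609-122465908, minus strand): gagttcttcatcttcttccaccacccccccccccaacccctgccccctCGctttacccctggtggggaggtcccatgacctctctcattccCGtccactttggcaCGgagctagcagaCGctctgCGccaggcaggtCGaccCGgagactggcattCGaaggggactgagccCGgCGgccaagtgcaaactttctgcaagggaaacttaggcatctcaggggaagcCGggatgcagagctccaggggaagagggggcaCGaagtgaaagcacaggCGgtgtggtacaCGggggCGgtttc
Lef1 (chr3:131110047-131110346, plus strand): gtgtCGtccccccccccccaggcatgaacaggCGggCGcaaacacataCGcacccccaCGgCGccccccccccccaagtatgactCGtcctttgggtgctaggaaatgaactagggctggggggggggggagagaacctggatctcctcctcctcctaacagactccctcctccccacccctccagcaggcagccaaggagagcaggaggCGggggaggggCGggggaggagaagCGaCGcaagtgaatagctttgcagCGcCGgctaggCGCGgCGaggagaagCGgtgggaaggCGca
Otx2 (chr14:48667595-48667894, minus strand): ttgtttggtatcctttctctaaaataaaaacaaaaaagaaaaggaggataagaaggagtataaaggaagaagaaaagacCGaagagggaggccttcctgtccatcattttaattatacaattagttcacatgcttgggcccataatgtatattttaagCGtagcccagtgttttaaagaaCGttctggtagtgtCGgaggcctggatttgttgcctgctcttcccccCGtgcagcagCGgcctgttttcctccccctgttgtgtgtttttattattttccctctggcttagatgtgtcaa
The Zic5 window holds 15 CpGs, that of Lef1 18 and that of Otx2 6, against a median of 7 over 32851 windows of 300 bases, of which 94.6% hold at least 1. In the first windows of the others, Fgf5 has 29 CpGs, Sox4 12 and Sall2 1. The second Sall2 window has 10, the other 3 of Lef1 have 21, 8 and 5, and the other 3 of Otx2 have 8, 16 and 11. The 3 genes whose level was lower in every Ezh2 KO library of a same-numbered pair and that have a window (Zic5, Lef1 and Sall2) thus span from 1 to 18 CpGs in the first window.

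Most of the markers were present at low levels on day 4. To compare genes, CPM was divided by the length of the union of a gene's exons in kb. Zic5 and Otx2 were the most abundant. Zic5 stood at 5.41 ± 0.261 CPM per kb in Ctrl and 3.81 ± 0.265 in Ezh2 KO (SD, n = 3). Otx2 stood at 3.55 ± 1.58 and 4.18 ± 1.66, so that its mean was below that of Zic5 in Ctrl and above it in Ezh2 KO, with ranges over the 6 libraries that overlap those of Zic5, and Zic5 was above Otx2 in 4 of 6 libraries. Zic2, at 1.26 ± 0.0946 and 0.791 ± 0.378 CPM per kb, was below Otx2 in 6 of 6 libraries with no overlap.

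Below these, neighbours in the order overlap each other: Lef1, Fgf5, Sox4, Cdh2 and Sall2 had means over all libraries of 0.452, 0.339, 0.301, 0.183 and 0.137 CPM per kb. Among 15629 tested genes with a known length, Zic5 and Otx2 lay at the 55.1 and 51.4 percentiles of level per kb, Zic2 at 28.3, Lef1 at 16.9, Fgf5 at 13.4, Sox4 at 12.1, Cdh2 at 7.32 and Sall2 at 5.10. Sox3 and Pou3f1 were at or near 0. With the longest transcript as the length, Otx2 (6.29 CPM per kb over all libraries) stands above Zic5 (4.73), and Lef1 rises to 1.09, next to Zic2 at 1.21, and Cdh2 (0.305) passes Sox4 (0.301).

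**Figure D1:**
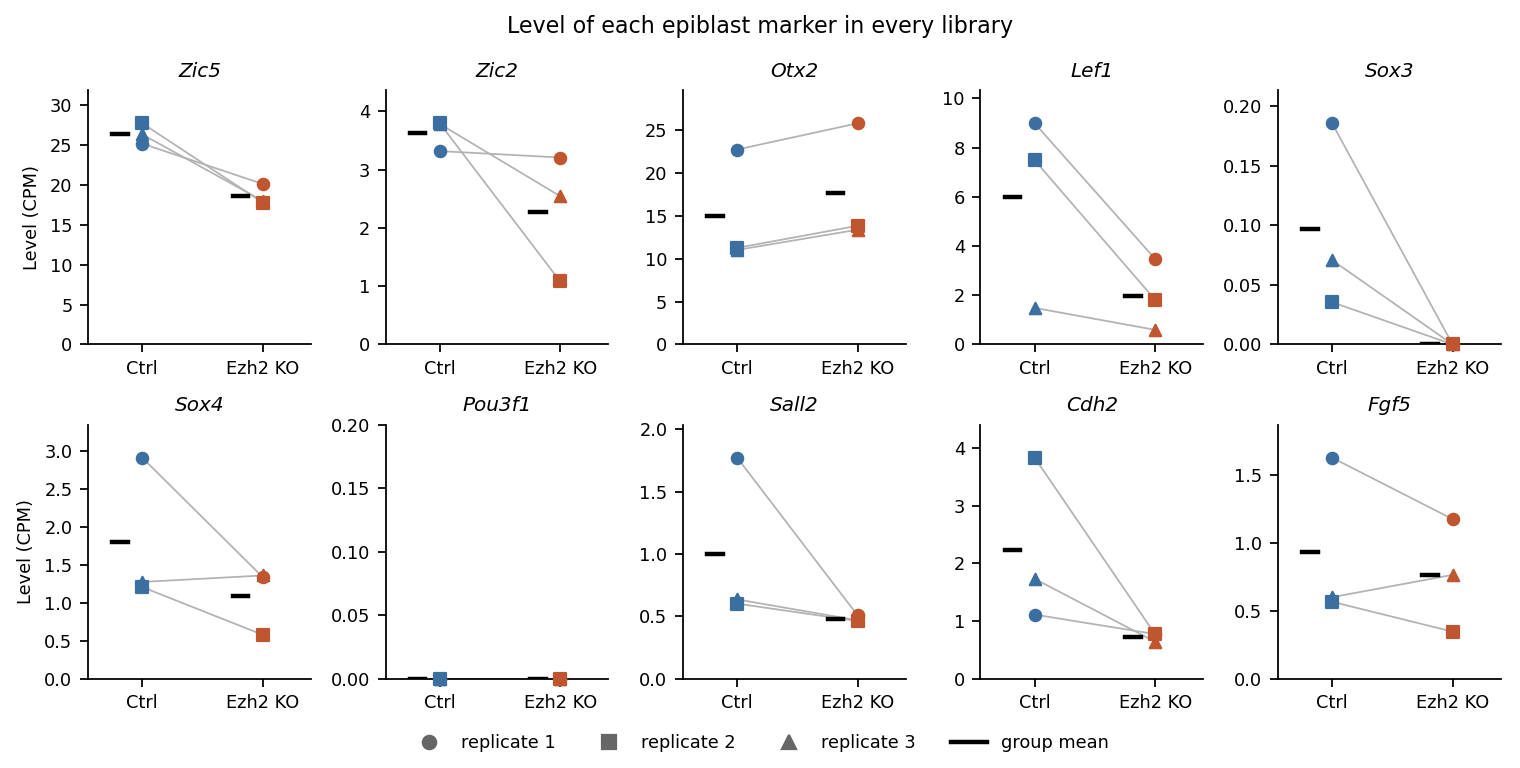
Level in CPM (y axis, linear from 0, own scale in each panel) of the 10 markers in the 3 Ctrl (blue) and 3 Ezh2 KO (orange) libraries; symbols give the replicate number, grey lines join equal numbers and short bars are group means. Zic5 and Lef1 are lower in Ezh2 KO in all 3 same-numbered pairs, Otx2 is higher in all 3, and Pou3f1 is at 0 throughout.

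The zinc finger genes Zic5 and Zic2, neighbours on chromosome 14 that are read in opposite directions and act in neural plate and epiblast cells, had Ezh2 KO libraries below all Ctrl libraries, though neither passed the test over all genes. Zic5 (ENSMUSG00000041703) stood, in replicate order, at 25.2, 27.7 and 26.4 CPM in Ctrl and at 20.1, 17.8 and 18.0 CPM in Ezh2 KO. The groups do not overlap, and each is tight: its spread within groups lay at the 1.66 percentile of tested genes. Its log2 fold change stayed between -0.60 and -0.42 in 20 alternative fits. The level in Ezh2 KO was 70.6% of that in Ctrl (95% interval 52.4% to 95.1%; log2 fold change -0.50 ± 0.19 SE). This difference was larger than the spread within the groups but missed the threshold of edgeR's quasi-likelihood test over all genes (unadjusted p = 0.0272, adjusted p = 0.976).

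Zic2 (ENSMUSG00000061524) stood at 3.32, 3.80 and 3.79 CPM in Ctrl and at 3.21, 1.08 and 2.54 CPM in Ezh2 KO, in replicate order. The Ctrl libraries are close to each other and all above the Ezh2 KO libraries, though by little in replicate 1, and Ezh2 KO replicate 2 is far below the rest. The fitted log2 fold change was -0.66 ± 0.41 SE (edgeR adjusted p = 0.976), with a 95% interval from -1.60 to 0.27. It was -0.33 without Ezh2 KO replicate 2. In the blocked fit it was -0.29 without replicate 2 and -1.15 without replicate 1 of both groups. Zic2 transcripts have 59.9% GC, more than 95.9% of tested genes, and Ezh2 KO replicate 2 is the library at one end of the first component. After an offset for transcript GC content in each library, Zic2 read 2.33, 3.60 and 4.26 CPM in Ctrl against 2.63, 1.76 and 2.55 CPM in Ezh2 KO, so the groups then overlap, and its log2 fold change was -0.53. Zic5, at 49.8% GC, was hardly moved by that offset (-0.51). Over the 6 libraries Zic2 and Zic5 were in the same order of level (Spearman's rho 1.00, Pearson's r 0.76 of log2 CPM, n = 6 libraries that share depth and group).

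Otx2 (ENSMUSG00000021848), the homeobox factor that holds epiblast cells back from germ fate, was the exception among the markers. It stood at 22.7, 11.2 and 11.002 CPM in Ctrl and at 25.8, 13.8 and 13.4 CPM in Ezh2 KO, so that each Ezh2 KO library exceeded its same-numbered Ctrl library while the groups overlapped widely. The 3 ratios were 113%, 123% and 121%. The spread came from replicate 1, which was about as high in both groups and far above replicates 2 and 3. The fitted log2 fold change of Otx2 was 0.23 ± 0.38 SE (95% interval -0.65 to 1.12; edgeR adjusted p = 0.977), and 0.25 ± 0.21 SE with the replicate number as a block (adjusted p = 0.733). Without Ezh2 KO replicate 1, a fit that keeps the high Ctrl replicate 1, its sign turned (-0.14). Blocked fits without the same number in both groups, chosen after seeing the data, kept it positive. They gave 0.29 without replicate 1, 0.25 without replicate 2 and 0.19 without replicate 3. Its paralogue Otx1, too low to test, read 0.289, 0.497 and 0.389 CPM in Ctrl against 0.134, 0.154 and 0.124 CPM in Ezh2 KO, with no overlap. Of all tested genes, 4.03% were lower in Ezh2 KO with no overlap. In the Ezh2 KO libraries 3 reads amount to 0.0802, 0.116 and 0.0741 CPM, so the Otx1 values there rest on few reads.

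By a fixed rule, the genes most like Otx2 over the 6 libraries were Tubb6 (a beta-tubulin, Pearson's r 0.995 of log2 CPM), Txnl1 (a thioredoxin-like protein, 0.994) and Plekhb1 (0.989), out of 11886 genes, of which 47 had an r over 0.95. With n = 6 libraries, in which replicate 1 of both groups stands apart, such values are a description only. Tubb6 read 117, 76.9 and 75.3 CPM in Ctrl against 122, 83.1 and 81.4 CPM in Ezh2 KO, the same shape as Otx2 at a higher level.

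Lef1 (ENSMUSG00000027985), the nuclear partner of beta-catenin that is switched on as epiblast cells become primed, had with Cdh2 the largest fitted decreases of the markers in the fit to all 6 libraries, with wide intervals. Its level in replicate order was 8.99, 7.49 and 1.49 CPM in Ctrl, against 3.48, 1.81 and 0.593 CPM in Ezh2 KO. The groups overlap because Ctrl replicate 3 is low, but within pairs of equal number the Ezh2 KO library held 38.7%, 24.2% and 39.9% of its Ctrl partner. Lef1 was also among the most variable genes, with a spread within groups at the 99.3 percentile of tested genes. The log2 fold change was -1.61 ± 0.76 SE with group as the only term (edgeR, unadjusted p = 0.0658, adjusted p = 0.976), and -1.19 without Ctrl replicate 1, where that of Cdh2 was -1.93. With the replicate block it was -1.59 ± 0.27 SE (95% interval -2.20 to -0.97), with an unadjusted p = 2.15e-04 that did not pass over all genes (edgeR adjusted p = 0.228).

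DESeq2 with the same block called Lef1 lower (log2 fold change -1.60, adjusted p = 0.00193); over the alternatives the adjusted p ran from 0.00193 to 1.00. That fit called 22 of 16420 genes as lower (0.134%), and Lef1 was its 1 call among the markers. Other TCF/LEF genes were more abundant. Tcf7l1, the repressor of the family, stood at 31.8 ± 3.26 CPM in Ctrl against 38.4 ± 11.1 CPM in Ezh2 KO, and Tcf7 at 14.2 ± 2.75 and 14.5 ± 1.49 CPM (SD, n = 3); the difference between these genes and Lef1 was not tested. Of 10 tested partners and targets of beta-catenin, 0 had an unadjusted p under 0.05 in either fit of edgeR, with a median log2 fold change of -0.10.

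The Sox markers were scarce. Sox4 (ENSMUSG00000076431), a SoxC factor of progenitors and of epithelial to mesenchymal change, read 2.91, 1.21 and 1.27 CPM in Ctrl against 1.34, 0.579 and 1.36 CPM in Ezh2 KO. It was lower in pairs 1 and 2 and slightly higher in the third, the groups overlap, and the log2 fold change was -0.72 ± 0.49 SE (edgeR adjusted p = 0.976). Without the libraries at both ends of the first component its sign turned (0.13).

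Sox3 (ENSMUSG00000045179), a SoxB1 factor of epiblast and neural progenitors on the X chromosome, had 9, 1 and 2 reads in the Ctrl libraries and 0 in each Ezh2 KO library. It was too low to test. The mean Ctrl level of 0.0973 CPM is 3.36-fold that of 3 reads over the whole Ezh2 KO group, taken as the floor. This floor covers counting error in Ezh2 KO only. The error of the 12 Ctrl reads, of which 9 came from replicate 1, is not in it, so the ratio is no lower bound. Sox3 transcripts have 66.4% GC, more than 99.8% of tested genes, and Sox3 was not part of the fits with a GC offset. Its SoxB1 relative Sox2, a core pluripotency factor, was at 76.8 ± 15.4 CPM in Ctrl against 62.9 ± 16.6 CPM in Ezh2 KO (SD, n = 3), and per kb Sox3 held 0.118% ± 0.0736 of the Sox2 level in Ctrl.

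Pou3f1 (ENSMUSG00000090125), the POU factor also called Oct6, had 0 reads in all 6 libraries. A count of 0 allows up to 0.0618 to 0.116 CPM per library, taken as 3 reads. The paralogues Pou3f3 and Pou3f4 were at 0 to 0.0825 CPM. The annotation that the counts were made with is not stated, and whether reads of Pou3f1 were lost in counting was not tested, so the 0 describes this table rather than the cells.

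Cdh2 (ENSMUSG00000024304), which encodes N-cadherin, the adhesion molecule of mesoderm and neural cells, was uniformly low in Ezh2 KO. It stood at 1.11, 3.83 and 1.73 CPM in Ctrl and at 0.776, 0.772 and 0.642 CPM in Ezh2 KO. No library of one group reaches the other, and Ctrl replicate 2 is the highest by far. The log2 fold change was -1.60 ± 0.50 SE (33.1% of Ctrl, 95% interval 14.9% to 73.3%; edgeR unadjusted p = 0.0124, adjusted p = 0.976). Without Ctrl replicate 2 it was -0.96. Without replicate 1 of both groups, in a blocked fit chosen after seeing the data, it was -1.87 with an edgeR adjusted p = 0.0327. That fit, with 2 libraries per group, called 32 genes in all. Over the alternatives the adjusted p of Cdh2 ran from 0.0327 to 1.00. E-cadherin (Cdh1), the epithelial counterpart, stood at 178 ± 47.4 and 163 ± 75.8 CPM (SD, n = 3), and per kb Cdh2 held 0.733% ± 0.417 of the Cdh1 level in Ctrl and 0.286% ± 0.112 in Ezh2 KO, with overlapping libraries.

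Sall2 (ENSMUSG00000049532), a zinc finger gene that is used outside the naive state while its relative Sall4 serves pluripotent and germ cells, read 1.77, 0.603 and 0.637 CPM in Ctrl against 0.508, 0.463 and 0.469 CPM in Ezh2 KO. Ctrl replicate 1 is far above the other Ctrl libraries, and the 3 Ezh2 KO libraries are nearly equal and just below all of Ctrl. In reads these are 86, 17 and 18 in Ctrl against 19, 12 and 19 in Ezh2 KO. The gap to Ctrl replicates 2 and 3 thus rests on few reads and on the scaling to library size. The fitted log2 fold change was -1.09 ± 0.51 SE (edgeR unadjusted p = 0.0644, adjusted p = 0.976), and it shrank to -0.37 without Ctrl replicate 1. Sall4 stood at 403 ± 52.8 and 380 ± 41.3 CPM (SD, n = 3).

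Fgf5 (ENSMUSG00000029337), the secreted growth factor most used to mark the exit from naive pluripotency, showed no common direction. It read 1.63, 0.568 and 0.601 CPM in Ctrl against 1.18, 0.347 and 0.766 CPM in Ezh2 KO, that is 79, 16 and 17 reads and 44, 9 and 31 reads. The Ezh2 KO libraries held 72.2%, 61.2% and 127% of their Ctrl partners, and the log2 fold change was -0.30 ± 0.58 SE (95% interval -1.64 to 1.04; edgeR adjusted p = 0.978). It turned positive without Ctrl replicate 1 (0.40). Fgf4, the family member of naive cells, was at 65.7 ± 19.4 and 51.7 ± 15.0 CPM (SD, n = 3). Among 14 FGF receptor and ERK feedback genes, all tested, 0 had an unadjusted p under 0.05 with group alone. With the block it was 1, the feedback inhibitor Spry4, higher at 32.6 ± 14.3 CPM in Ctrl against 51.3 ± 10.3 CPM in Ezh2 KO (edgeR unadjusted p = 0.00588, adjusted p = 0.466), where 5.98% of all genes were higher by that p.

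**Figure D2:**
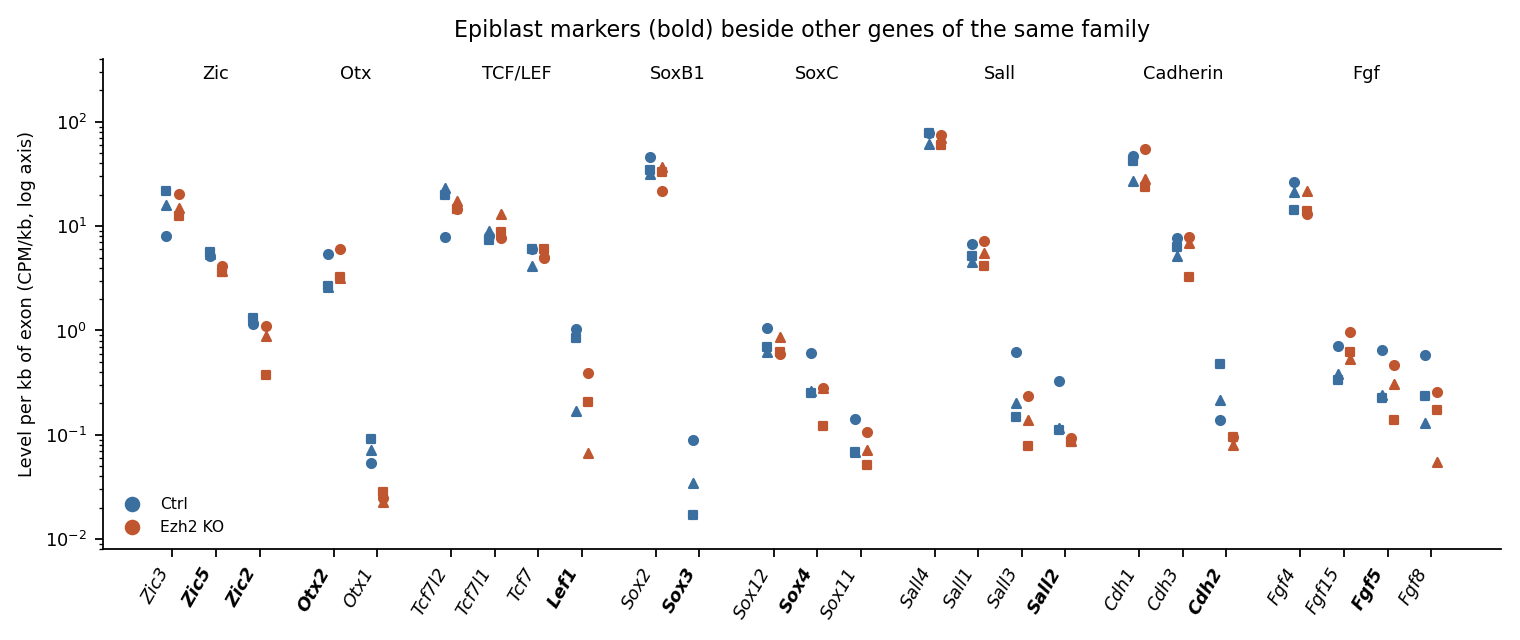
Level per kb of exon (CPM per kb, log axis) of the 9 markers other than Pou3f1, in bold, beside other genes of their families, in each Ctrl (blue) and Ezh2 KO (orange) library; symbols give the replicate number as in the plot of levels, and values of 0 (Sox3 in Ezh2 KO) cannot be drawn. Apart from Otx2, each marker lies below the most abundant gene drawn of its family, as Cdh2 does below Cdh1 and Sall2 below Sall4.

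Across the 8 markers that passed the filter on low counts (all but Pou3f1 and Sox3), 7 had a negative log2 fold change and 1 a positive one. Over all 16420 tested genes 48.7% were negative. The median of the 8 was -0.69, against 0.01 over all tested genes. By the adjusted threshold of 0.05, edgeR called 0 of the 8, and it called 0% of all genes. At an unadjusted p under 0.05 with group alone, 2 markers (Zic5 and Cdh2) were lower, where 1.25% of all genes were. With the replicate block there were 4 (Lef1, Zic5, Cdh2 and Sall2), where 3.12% of all genes were, and again 0 called. Other lists held genes lower by that blocked p too. They were 4 of 6 fibroblast and matrix, 2 of 3 endoderm, 3 of 11 mesoderm and streak and 2 of 8 neural markers. Of 26 other formative and primed genes it was 1. Limma-voom called 0 of the 8 and 0% of all genes, DESeq2 without the block called 0 of the 8 and 0.0311% of all genes as lower, and DESeq2 with the block called 1 of the 8.

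No overlap between the groups, with Ezh2 KO lower, was seen in 4 of the 8 (Zic2, Zic5, Cdh2 and Sall2), against 4.03% of all tested genes. Other lists held such genes too (3 of 8 neural markers and 3 of 6 fibroblast and matrix markers). In the other direction there were 0 of the 8, against 4.07%. The count was 4 with any 1 library left out, except 5 without Ctrl replicate 3, when Lef1 joined, and 7.22% to 12.7% of genes then met it. It was 4 without both libraries at the ends of the first component, where 16% of genes met it. Without those 2 libraries Otx2, Fgf5 and Sox4 had no overlap in the other direction, with Ezh2 KO higher, as had 15.3% of all genes. The count of lower markers was 3 after the GC offset, which removes Zic2, where 4.68% of genes met it. Lower in all 3 same-numbered pairs were 5 markers (Lef1, Zic2, Zic5, Cdh2 and Sall2), against 14.8% of all genes. So were 4 of 6 fibroblast and matrix, 2 of 3 endoderm, 5 of 11 mesoderm and streak and 3 of 8 neural markers. Of 26 other formative and primed genes 7 were. The markers were chosen with earlier results of these data known, so these counts carry no test.

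**Figure D3:**
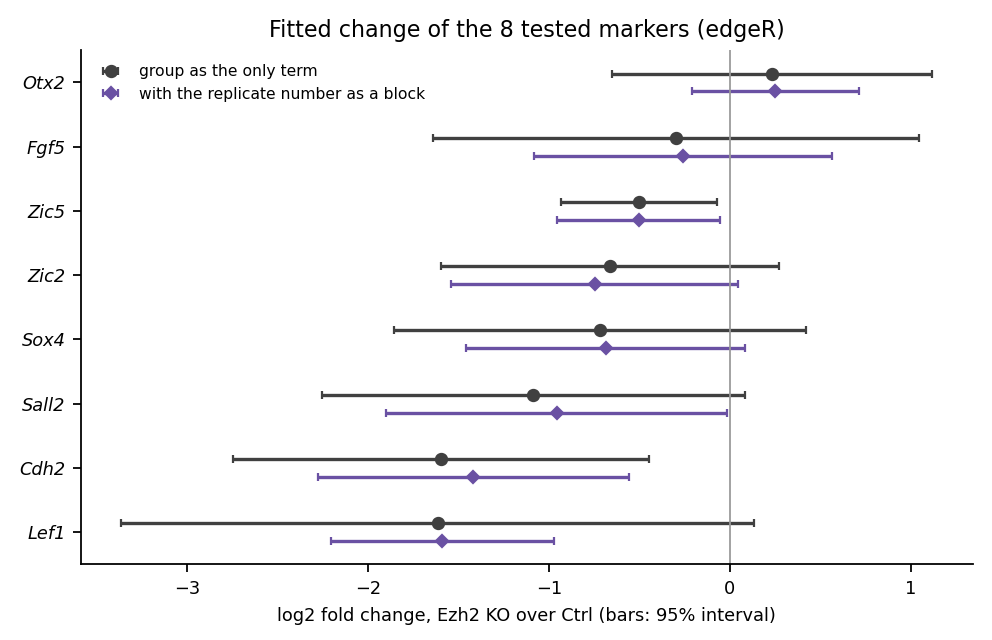
Fitted log2 fold change of Ezh2 KO over Ctrl (x axis) of the 8 tested markers with group as the only term (circles) and with the replicate number as a block (diamonds); bars are 95% intervals. The interval of Lef1 runs from -3.36 to 0.13 without the block and from -2.20 to -0.97 with it, and that of Otx2 includes 0 in both fits.

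The summed level of the 10 markers was 67.8, 56.5 and 46.9 CPM in Ctrl, against 56.4, 36.7 and 37.7 CPM in Ezh2 KO (replicate order). The groups overlap, and the sum in Ezh2 KO was 83.1%, 64.9% and 80.4% of that in the same-numbered Ctrl libraries. Zic5 and Otx2 made up 72.5% of that sum in Ctrl and 83.2% in Ezh2 KO. Without those 2 genes the sums were 19.9, 17.5 and 9.59 CPM in Ctrl against 10.5, 5.06 and 6.37 CPM in Ezh2 KO, or 52.6%, 28.9% and 66.5% by pair. In bulk samples, fewer cells of a type and less RNA per cell cannot be told apart.

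Of the 28 pairs among the 8, 25 had a positive Pearson's r of log2 CPM over the 6 libraries, which share depth, composition and group. Fgf5 and Sox4 were the most alike (r 0.91), followed by Zic5 and Cdh2 (0.87) and by Sox4 and Sall2 (0.82). All 3 negative values were pairs of Otx2 or Fgf5 with Cdh2 or Zic5 (-0.50 for Otx2 with Cdh2, -0.21 for Otx2 with Zic5 and -0.19 for Fgf5 with Cdh2). Against the first component, Fgf5 (r -0.94) and Sox4 (-0.92) followed it most closely and Cdh2 (-0.13) least, where the median size of r over all tested genes was 0.66. That component also has its ends in 1 library of each group, and its part in the differences of Fgf5 and Sox4 was not tested.

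Other genes of the formative and primed state were evenly split in direction. All 26 listed were tested, 13 with a positive and 13 with a negative log2 fold change and a median of 0.00. With no overlap between the groups, 4 of the 26 were higher in Ezh2 KO and 1 was lower, where 4.07% and 4.03% of all genes were. By unadjusted p under 0.05 in edgeR with group alone, 3 were higher (1.55% of all genes were) and 0 lower, and 0 passed after adjustment. The tight junction gene Cldn6 stood at 55.3 ± 3.81 CPM in Ctrl against 93.0 ± 25.3 CPM in Ezh2 KO, and the DNA methyltransferase gene Dnmt3b at 48.0 ± 3.77 and 74.0 ± 18.2 CPM (SD, n = 3). Grhl2, an epithelial regulator of the formative state, was the third, at 5.66 ± 1.34 and 9.63 ± 2.21 CPM, and was named after its values were seen. The most abundant, the Nodal co-receptor gene Tdgf1 and the chromatin factor gene Utf1, stood at 1435 ± 277 and 1806 ± 247 CPM and at 577 ± 153 and 595 ± 158 CPM.

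Nanog, a core factor of naive and early germ cells, was at 229 CPM per kb in Ctrl, far above the levels of Zic5 and Otx2. It belongs to a list of naive genes, of which all 15 were tested, with a median log2 fold change of -0.09, 11 negative and 0 past an unadjusted p of 0.05 with group alone. The block gave 1, Tfcp2l1, higher (137 ± 13.9 CPM in Ctrl against 187 ± 46.3 CPM in Ezh2 KO; edgeR unadjusted p = 0.0272, adjusted p = 0.492), where 5.98% of all genes were higher by that p. Of the 13 germ cell genes 8 were negative, with a median of -0.29 and 0 past that p in either fit.

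**Figure D4:**
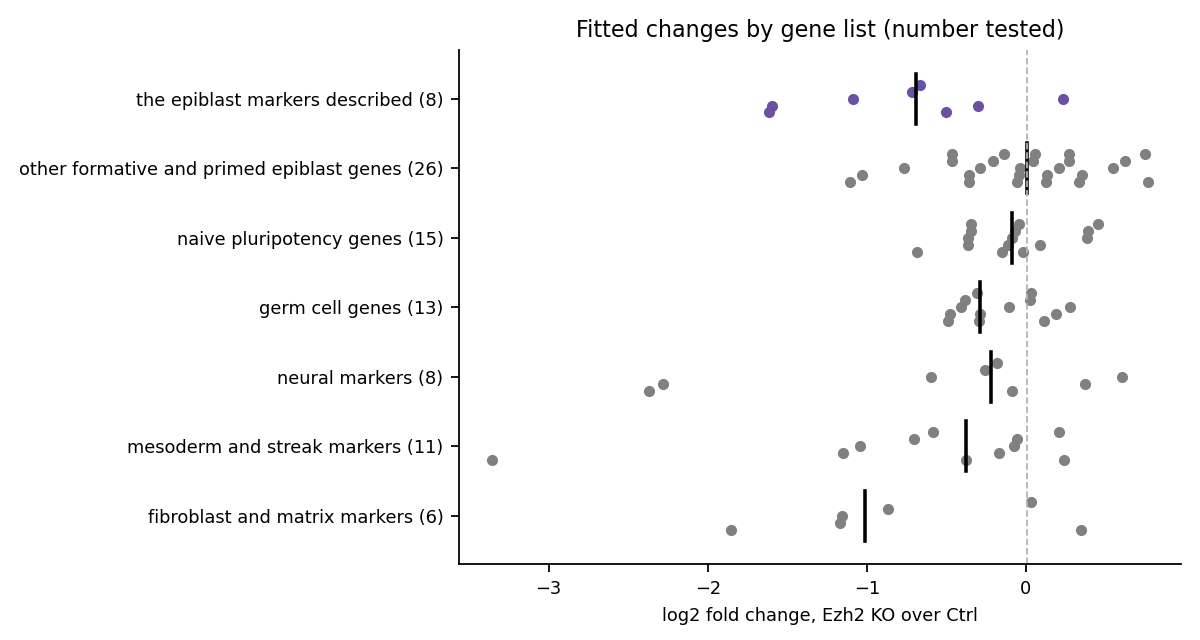
Fitted log2 fold change of Ezh2 KO over Ctrl (x axis) of each tested gene by list, with the number tested; vertical bars are list medians, the dashed line is the median over all tested genes (0.01), and the vertical scatter within a row has no meaning. The markers described have a median of -0.69 and the other formative and primed genes one of 0.00.

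Several of the markers are also genes of somatic lineages, Sox3, Zic2, Zic5, Otx2 and Cdh2 above all of the neural one, so the levels of markers for other lineages are given beside them. Of 19 neural markers found, 8 were tested and Neurog2 and Olig2 were at 0 in all libraries. Their summed level was 24.2 to 38.0 CPM in Ctrl against 16.2 to 31.3 CPM in Ezh2 KO. Of the 8, 6 were negative, with a median log2 fold change of -0.22, and 2 had an unadjusted p under 0.05, both lower, where 1.25% of all genes were: the proneural gene Neurog1 (1.35 ± 0.405 CPM in Ctrl against 0.251 ± 0.190 CPM in Ezh2 KO) and the forebrain regulator Lhx2 (0.351 ± 0.0406 and 0.0729 ± 0.0372 CPM). EdgeR called 0 of the neural markers, and DESeq2 with the block called Neurog1 lower (adjusted p = 0.0334), as it did 0.134% of all genes. Of the 8, 3 were lower with no overlap, where 4.03% of all genes were.

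Mesoderm and streak markers, of which 11 of 16 were tested, had a median of -0.38 with 9 negative. They summed to 16.7 to 23.5 CPM in Ctrl against 11.2 to 16.6 CPM in Ezh2 KO. EdgeR called 0, and DESeq2 with the block called the homeobox gene Msx1, a BMP target, lower (3.42 ± 3.12 CPM in Ctrl against 0.332 ± 0.0782 CPM in Ezh2 KO; adjusted p = 9.65e-05), as it did 0.134% of all genes. Msx1 and the caudal homeobox gene Cdx2, which is also on the trophoblast list, were the 2 of the 11 that were lower at an unadjusted p under 0.05 in edgeR with group alone (1.25% of all genes were), and the same count of 2 was lower with no overlap (4.03% of all genes were). Fibroblast and matrix markers, 6 of 11 tested, had a median of -1.01 with 4 negative, among them Fbn1, the fibrillin gene (1.14 ± 0.372 and 0.314 ± 0.133 CPM), and summed to 14.7 to 18.4 and 13.8 to 15.5 CPM. Of the 6, 3 were lower with no overlap and 3 were lower at an unadjusted p under 0.05, where 4.03% and 1.25% of all genes were. The most abundant of them, the vimentin gene Vim, had the opposite sign, with all Ezh2 KO libraries above all Ctrl libraries (8.46 ± 0.257 and 10.8 ± 0.650 CPM; edgeR unadjusted p = 0.145). Endoderm markers, 3 of 9 tested, were all negative (median -0.88) and summed to 7.68 to 10.0 and 4.29 to 8.77 CPM, with Cer1 at 0 in all libraries. Trophoblast markers, 9 of 10 tested, had a median of 0.17 and summed to 46.2 to 60.2 and 47.5 to 63.7 CPM. With no overlap, 2 of them were higher (Elf5 and Eomes) and 1 lower (Cdx2), where 4.07% and 4.03% of all genes were. At an unadjusted p under 0.05, 1 was higher, Elf5 (0.549 ± 0.170 and 1.17 ± 0.350 CPM; edgeR unadjusted p = 0.0327, adjusted p = 0.976), and 1 lower, Cdx2, where 1.55% and 1.25% of all genes were. The part of such cells in the lower levels of Zic2, Zic5, Cdh2, Sall2 and Lef1 was not tested.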

How the data were processed

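Per the labels' protocols, sorted cells of PGCLC aggregates gave total RNA, and libraries were made with a low-input kit. The authors deposited 1 table of raw read counts per Ensembl gene, with 1 column per library and no normalization. Per the submitters' processing notes, the builds were mm9 and NCBIM37 and the tools TopHat2 2.0.11, featureCounts, Trimmomatic 0.33 and CASAVA 1.8.4. Settings, strand use and annotation version are not stated there. Reads of genes that overlap on the opposite strand can therefore not be told apart: GENCODE M21 places such a gene over Otx2, Pou3f1, Lef1, Sox4 and Cdh2. Of these overlapping genes only the one over Cdh2 was among the counted gene IDs, with 0 counts. Where any reads of the others went was not tested.

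GENCODE M21 gave symbols, exon lengths and GC content of transcripts by gene ID (32919 of 37991 IDs had a symbol). Genes kept by filterByExpr (minimum count 10) numbered 16420. TMM-scaled counts were tested with edgeR 4.0.16 (R 4.3.3), quasi-likelihood, robust, two-sided, with group as the only term and Benjamini-Hochberg adjustment over all genes at 0.05. Alternatives used DESeq2 1.42.0, limma 3.58.1 (voom), other scalings and filters, left-out libraries, and a GC offset (loess of log2 CPM, span 0.5). Counting limits take 3 reads for 0 and cover counting error only.

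The labels number the libraries 1 to 3 in each group. How far a library departed from its group's mean correlated within each same-numbered pair (r 0.58, 0.37 and 0.19 over all tested genes, from -0.52 to 0.30 between other numbers). Ctrl replicate 3 correlated more with Ezh2 KO replicate 2 (r 0.30) than with Ezh2 KO replicate 3 (r 0.19), so the match of number 3 is weak. The numbers were taken to pair the libraries, from the data and not from a label. The replicate block and all same-numbered ratios rest on that choice.

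The markers and lists were chosen with earlier results of these data known. Genes named are the markers, Ezh2, up to 2 tested genes of smallest p and up to 2 of highest mean in each list, paralogues of a marker, and the 3 genes most correlated with Otx2 (mean log2 CPM of at least 1). A planned comparison of marker proteins was not made here.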

Additional observations from a re-analysis of the deposited data

How the results depend on the processing

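The negative sign held in every alternative fit for Zic5, Zic2, Lef1, Cdh2 (20 fits each) and Sall2 (19 fits). With 1 library left out, Otx2 ran from -0.14 (without Ezh2 KO replicate 1) to 0.67 (without Ctrl replicate 1), and Fgf5 from -0.74 (without Ezh2 KO replicate 1) to 0.40. Fgf5 turned to 0.40 without Ctrl replicate 1, to 0.03 without Ezh2 KO replicate 2 and to 0.73 without both end libraries of the first principal component, where Sox4 turned to 0.13. The cause was not tested. Blocked fits that drop the same replicate number from both groups were chosen after seeing the data. In them Fgf5 stayed negative (-0.11 without replicate 1, -0.11 without replicate 2 and -0.59 without replicate 3), and Otx2 stayed positive.

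With edgeR, 0 markers and 0 genes were called. DESeq2 called 20 genes and 0 markers, and DESeq2 with the replicate block 50 genes and 1 marker, Lef1 (-1.60). The replicate block in edgeR called 0 genes, with a median marker change of -0.72, and changed no other call. Without replicate 1 in both groups, an alternative chosen after seeing the data, the blocked edgeR fit called 32 genes and 2 markers, Lef1 (adjusted p = 0.0458) and Cdh2 (0.0327).

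The median log2 fold change of the tested markers, -0.69, ran from -0.93 (without Ezh2 KO replicate 1) to -0.44 (without Ezh2 KO replicate 2) when 1 library was left out, with -0.45 without Ctrl replicate 1. It was -0.37 without both libraries at the ends of the first component. In the blocked fit it was -0.48 without replicate 2 and -1.01 without replicate 3 of both groups. Over the longest transcript, the levels of Otx2 and Lef1 moved to 6.29 and 1.09 CPM per kb. The stricter filter (1 CPM in 3 libraries) gave no value for Fgf5 and Sall2. The lowest tested marker, Sall2, had 171 reads over all libraries, Sox3 had 12 and Pou3f1 0. Differences in Sox3 and Pou3f1 were therefore not detectable or not testable at this depth.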
